A study of Mus musculus with 69 samples.

Results

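Levels of 10 genes of the vascular endothelium and of angiogenesis were compared between Zeb1 genotypes in female mouse pituitary, hypothalamus and ovary. The genes are Vegfa, Kdr, Flt1, Angpt2, Tek, Tie1, Pecam1, Cdh5, Emcn and Plvap. They were chosen by symbol and by known role in vessels, not by any measured value, though with earlier results of these data known. They are 10 of the 55964 gene IDs in the deposited count tables. Each symbol matched a single gene ID, and that ID had a row in every tissue and cohort.

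All mice were C57BL/6J females staged for proestrus. Zeb1_WT mice (WT) carry the normal gene, Zeb1_200H mice (200H) are heterozygous and Zeb1_200M mice (200M) homozygous for a Zeb1 allele whose 3′ UTR sites for the miR-200a and miR-200b families are mutated. The change is in the germline and therefore in every cell type, endothelium included. The young cohort was made up of virgin females of 8 to 12 weeks, and the older cohort of females of 28 to 36 weeks killed after a breeding trial. Each tissue, cohort and genotype has 4 libraries, except that young WT pituitary, older 200M pituitary and older 200M hypothalamus have 3. Total RNA freed of ribosomal RNA and sequenced with strand gave the young libraries, and poly(A) RNA without strand gave the older ones, so that age, breeding history and library type cannot be told apart between cohorts.

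Endothelial cells line blood vessels and respond to a pair of ligand systems. Vegfa protein, released by surrounding tissue, binds the receptor tyrosine kinases encoded by Kdr and Flt1 and drives vessel growth and permeability, with Flt1 also acting as a trap for the ligand. Angiopoietins bind the receptor encoded by Tek, with Tie1 as its partner receptor, and set how tightly the vessel wall is held. Vessels of the pituitary and of the corpus luteum are permeable and fenestrated, whereas those of most of the hypothalamus form the blood-brain barrier, and the ovary builds and removes vessels in each cycle. In RNA from whole tissue, fewer endothelial cells and less RNA per endothelial cell cannot be told apart.

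The members fall into 3 roles, and their positions on GRCm38 follow the GENCODE annotation. Among the VEGF ligand and its receptors, Vegfa (ENSMUSG00000023951) lies at chr17:46016993-46032369, Kdr (ENSMUSG00000062960) at chr5:75932827-75978458 and Flt1 (ENSMUSG00000029648) at chr5:147561604-147726011, all on the minus strand. Among the angiopoietin genes, Angpt2 (ENSMUSG00000031465) lies at chr8:18690263-18741562 and Tie1 (ENSMUSG00000033191) at chr4:118471191-118490061 on the minus strand, and Tek (ENSMUSG00000006386) at chr4:94739289-94874976 on the plus strand. Of the surface proteins, the adhesion molecule Pecam1 (ENSMUSG00000020717) lies at chr11:106654217-106750628 and the diaphragm protein of fenestrated vessels Plvap (ENSMUSG00000034845) at chr8:71497765-71511752, both on the minus strand. VE-cadherin, the junction protein encoded by Cdh5 (ENSMUSG00000031871), lies at chr8:104101625-104144511 and the sialomucin Emcn (ENSMUSG00000054690) at chr3:137341067-137432185, both on the plus strand. Angpt2, Cdh5 and Plvap overlap a gene on the opposite strand, but no exon of a member overlaps an exon of another gene in this annotation.

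The microRNAs that the mutant allele escapes are shown with the seed, bases 2 to 8, in capitals. They are mature mouse sequences of RefSeq on GRCm38.p6, and the first 3 share one seed and the last 2 another.
mmu-miR-200b-3p: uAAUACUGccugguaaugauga
mmu-miR-200c-3p: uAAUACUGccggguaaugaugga
mmu-miR-429-3p: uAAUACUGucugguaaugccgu
mmu-miR-200a-3p: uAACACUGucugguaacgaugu
mmu-miR-141-3p: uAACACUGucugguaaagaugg

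The longest annotated 3′ UTR of each member was searched on its own strand for CAGTATT, the letters complementary to the seed shared by miR-200b, miR-200c and miR-429, and for CAGTGTT, those complementary to that of miR-200a and miR-141. Vegfa held 1 match to CAGTATT, Kdr held 2 and Emcn held 1, while Flt1, Angpt2, Tek, Tie1, Pecam1, Cdh5 and Plvap held 0 and no member held CAGTGTT. Of 20985 genes with an annotated 3′ UTR, 13.2% held CAGTATT, 17.1% held CAGTGTT and 25.63% held at least one of these. The Kdr match nearer the end of the UTR is followed by an A, which makes it a match of 8 letters, CAGTATTA, found in 3.15% of the genes. A match of letters is a description of the sequence and not a measured site. The matches are shown with 10 bases before them, the matching letters in capitals.
Vegfa, chr17:46017625-46017652, minus strand, GRCm38: gggtttttttCAGTATTcttggttaata
Kdr, chr5:75933443-75933470, minus strand, GRCm38: cccaagtcctCAGTATTttagctttgtg
Kdr, chr5:75933077-75933104, minus strand, GRCm38: ccttttgtatCAGTATTAtgtaccacta
Emcn, chr3:137430934-137430961, plus strand, GRCm38: tagccagtgtCAGTATTtattgtttccc

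In the 250 bases before the annotated start, RefSeq gave promoters for Vegfa, Kdr, Flt1, Tek, Tie1 and Emcn. ZEB1 protein binds CAGGTG and CAGGTA, and both were searched on both strands. CAGGTG, which reads CACCTG on the other strand, occurred in 1 of these 7 promoters (Vegfa has 2), that of an internal Vegfa start, where it lay 186 and 178 bases before the start. It occurred in 17.22% of 32851 promoters of the same length, and CAGGTA, found in 10.05% of them, occurred in 0 of the 7. Pecam1, Cdh5, Plvap and Angpt2 had no entry.

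Library totals ranged from 3321845 to 14655095 counts over the 69 libraries, and the young hypothalamus was shallowest, at no more than 5143128 counts. Values are counts per 1000000 counts (CPM) scaled by TMM, the trimmed mean of M values, over the libraries of a tissue and cohort. Zeb1, the altered gene, was higher in the pituitary, at 134 to 145 CPM in 4 young 200M libraries against 93.9 to 98.5 in 3 young WT libraries. Relative to WT it was higher by 0.52 on the log2 scale in young 200M, 0.44 in young 200H, 0.55 in older 200M and 0.33 in older 200H pituitaries, all past the threshold in edgeR. In hypothalamus and ovary the Zeb1 differences did not pass it. Tissue labels were checked with marker genes. The summed level of 6 pituitary hormone genes was 160000 CPM or more in WT pituitary and at most 93.5 CPM in WT hypothalamus, and that of 6 luteal genes was 7290 CPM or more in WT ovary.

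Tests compared 2 groups by edgeR's quasi-likelihood test, with Benjamini-Hochberg adjustment over all genes tested, and a gene was called at an adjusted p under 0.05. The p values measure the spread between these libraries. Comparisons of 200M and of 200H with WT use the same WT libraries and are therefore not independent of each other.

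In WT mice the members were at very different levels in the 3 tissues, and the pattern differed from gene to gene. Plvap was the member that most separated the pituitary from the hypothalamus, Angpt2 and Cdh5 stood out in the ovary, and Flt1 alone was higher in the hypothalamus than in the other tissues. To set genes side by side, levels were scaled over the WT libraries of all tissues of a cohort and divided by exon length, in CPM per kb.

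In young WT pituitary the order by CPM per kb was Plvap at 29.4 ± 3.26 (SD, n = 3), then Emcn at 12.6 ± 1.30, Vegfa at 12.5 ± 0.482, Kdr at 11.03 ± 0.813 and Cdh5 at 10.6 ± 1.33. Neighbours from Emcn to Cdh5 did not differ beyond their spread, while Plvap was above every other member in each library. Pecam1 followed at 8.23 ± 0.532, then Tek at 3.503 ± 0.406, Flt1 at 3.35 ± 0.454 and Tie1 at 3.22 ± 0.704, which did not differ beyond their spread. Angpt2, a ligand that is low in resting vessels, was lowest at 1.28 ± 0.278 CPM per kb. The older WT pituitary had Plvap first at 70.7 ± 10.2 CPM per kb (n = 4) and Angpt2 last at 1.77 ± 0.231 too.

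Vegfa led in young WT hypothalamus at 11.9 ± 1.27 CPM per kb (n = 4), followed by Flt1 at 7.53 ± 0.436. The endothelial genes Cdh5 at 5.80 ± 0.520 and Pecam1 at 5.25 ± 0.692 came next, with levels that overlapped. Emcn at 3.26 ± 0.719, Kdr at 2.95 ± 0.791, Tek at 2.34 ± 0.416, Plvap at 1.73 ± 0.413 and Tie1 at 1.27 ± 0.487 formed a run in which neighbours did not differ beyond their spread. Angpt2 was lowest at 0.309 ± 0.106 CPM per kb, which rested on 2 to 6 counts a WT library.

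The young WT ovary had Cdh5 first at 26.6 ± 2.42 CPM per kb (n = 4). Pecam1 at 17.8 ± 1.10, Vegfa at 16.3 ± 1.22, Emcn at 13.1 ± 0.752 and Kdr at 11.1 ± 0.394 followed. Angpt2 at 5.31 ± 0.384 there stood with Plvap at 5.24 ± 1.17, Tie1 at 5.15 ± 0.133, Tek at 4.36 ± 0.718 and Flt1 at 3.77 ± 0.316, and neighbours in this run did not differ beyond their spread.

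**Figure D1:**
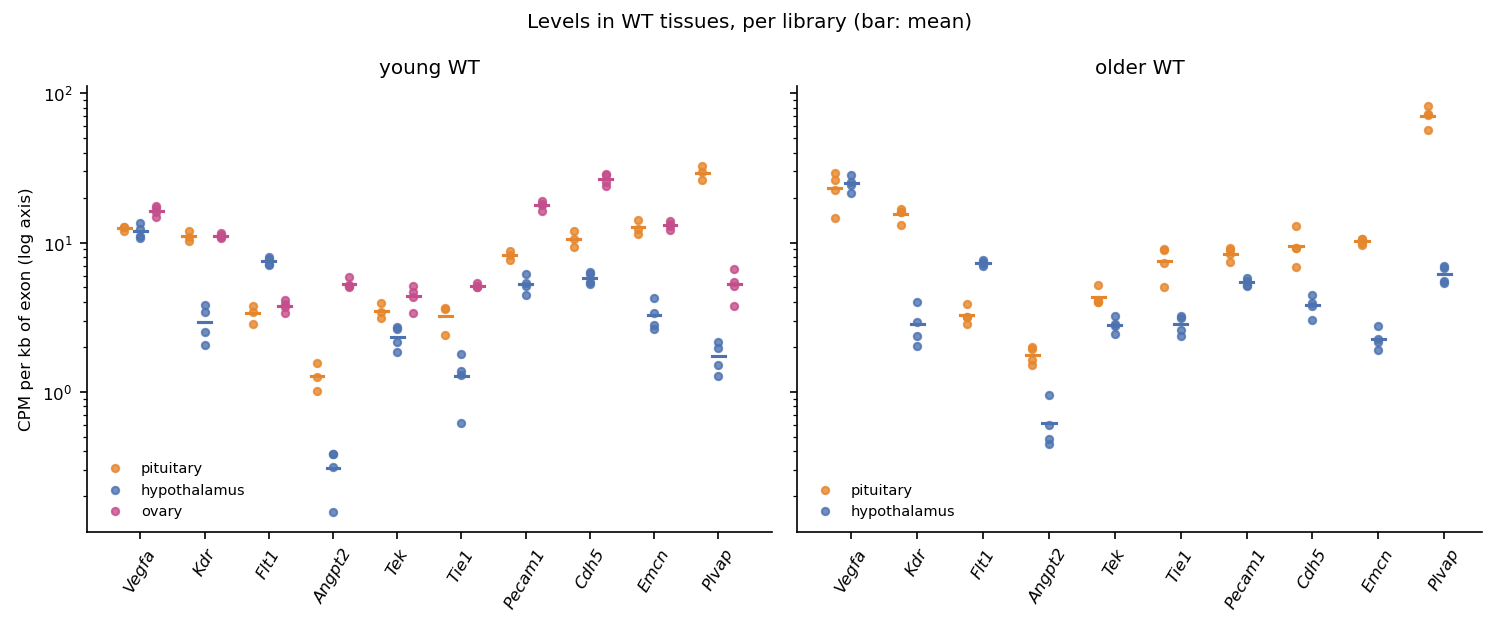
Level of each member in WT libraries in CPM per kb of exon (log axis), young cohort at left with pituitary, hypothalamus and ovary, older cohort at right with pituitary and hypothalamus; points are libraries and bars means. Plvap separates pituitary from hypothalamus in both cohorts, with young means of 29.4 and 1.73, and Flt1 is the member with its highest points in hypothalamus.

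Against young hypothalamus, 8 of 10 members were called higher in young pituitary, where 36.8% of all genes tested were, and 1 was called lower, against 35.4% of all genes. Plvap was 16.8-fold higher (log2 fold change 4.07, SE 0.17, edgeR adjusted p = 1.38e-16), Angpt2 4.06-fold, Emcn 3.92-fold, Kdr 3.78-fold and Tie1 2.50-fold. Cdh5 and Pecam1 were 1.84- and 1.58-fold higher, and Tek was higher by a log2 difference of 0.58. Flt1 was the member called lower, at 0.447-fold of the hypothalamic level (log2 -1.16, SE 0.10, edgeR adjusted p = 2.48e-10). Vegfa had a log2 difference of 0.07 with a 95% interval from -0.14 to 0.28. The members' median log2 difference was 1.10, and that of all genes tested was 0.05.

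The older pituitary and hypothalamus gave the same calls, with 8 members higher, against 37.6% of all genes, and 1 lower, against 39.2%. Plvap was 11.4-fold higher in pituitary (log2 3.52, SE 0.13), Kdr 5.48-fold and Emcn 4.497-fold. Flt1 was at 0.450-fold (log2 -1.15, SE 0.10), and Vegfa again did not pass the test at a log2 difference of -0.12 (95% interval -0.47 to 0.23). These libraries come from other mice and another library type.

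Young ovary exceeded young hypothalamus for 9 members, against 40.6% of all genes called higher, and Flt1 was the 1 member called lower, against 36.1%. Angpt2, which the ovary is known to use in vessel remodelling, was 16.8-fold higher (log2 4.07, SE 0.24), although the hypothalamic level rested on few counts. Cdh5 was 4.61-fold, Emcn 4.07-fold, Tie1 3.99-fold and Kdr 3.82-fold higher. The smallest called rise was that of Vegfa, at 1.37-fold (log2 0.45, SE 0.09, edgeR adjusted p = 0.000144).

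Between young ovary and young pituitary, 6 members were called higher in ovary, against 35.6% of all genes, and 1 lower, against 32.7%. Angpt2 was 4.26-fold, Cdh5 2.58-fold, Pecam1 2.22-fold, Tie1 1.65-fold and Vegfa 1.34-fold higher in ovary. Tek was called at a log2 difference of 0.36 (edgeR adjusted p = 0.0331), but DESeq2 gave 0.33 with an adjusted p of 0.134. Without ovary replicate 3, 4 or pituitary replicate 2 or the one labelled u, which has no number, the edgeR adjusted p for Tek was between 0.0583 and 0.146. Plvap was lower in ovary, at 0.183-fold of pituitary (log2 -2.45, SE 0.14). The log2 differences for Kdr (0.05, 95% interval -0.11 to 0.22), Emcn (0.10, -0.11 to 0.30) and Flt1 (0.21, -0.01 to 0.43) did not pass the test, though without ovary replicate 2 Flt1 was called at 0.28 (edgeR adjusted p = 0.0306). The older ovary was counted with another tool and annotation than the other older tissues and was not tested against them.

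Emcn in the pituitary was the one member called in a comparison between genotypes. In older pituitary, Emcn was at 25.1, 28.1, 27.2 and 25.1 CPM in WT replicates 1 to 4. Its level was 35.4, 39.2 and 31.1 CPM in the 200M libraries, and 33.7, 32.8, 35.1 and 27.8 CPM in the 200H libraries. Every 200M library was above every WT library, and 1 of the 4 200H libraries fell within the WT range. Emcn was 1.35-fold higher in 200M than in WT (log2 0.44, SE 0.11, 95% interval 0.21 to 0.67, edgeR adjusted p = 0.0122). It was called in 5 of 5 other fits, with log2 values of 0.41 to 0.44, but without 200M replicate 2 the value was 0.36 and the edgeR adjusted p 0.0829.

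Young pituitary gave Emcn values in the same direction. The young WT libraries were at 31.7, 35.7 and 29.3 CPM, the young 200M libraries at 37.2, 38.1, 43.5 and 35.3 CPM, and the young 200H libraries at 36.8, 42.7, 37.7 and 37.7 CPM. The 200H and WT ranges did not overlap, and the lowest 200M library lay just below the highest WT library. The log2 fold change was 0.25 for 200M (95% interval 0.05 to 0.46, edgeR adjusted p = 0.0739) and 0.25 for 200H (0.04 to 0.47, edgeR adjusted p = 0.121), and neither was called. Without WT replicate 2 the 200M value was 0.34 with an edgeR adjusted p of 0.0292. In older 200H pituitary it was 0.30 (95% interval 0.08 to 0.51, edgeR adjusted p = 0.0778), and without 200H replicate 4 it was called at 0.36 (adjusted p = 0.0419). The difference between the cohorts in the Emcn response to 200M was 0.13 on the log2 scale, with a 95% interval of -0.17 to 0.43.

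The share of all genes called gives the background for these counts. In young 200M pituitary 0 of 10 members were called, where 21.5% of all genes tested were. In young 200H pituitary 0 were called against 12.3% of all genes, and in the comparison of 200M with 200H 0 were called against 0.0383%. Older pituitary had 1 of 10 members called in 200M, against 21.4% of all genes, 0 in 200H, against 12.2%, and 0 between 200M and 200H, against 0.121%. At an unadjusted p under 0.05 there were 2, 2 and 0 members among the young comparisons and 1, 2 and 0 among the older, in the same order. Of all genes tested, 5899 of 18199, 4610 of 18051 and 1081 of 18271 were under it in the young comparisons. In the older comparisons 5089 of 14711, 3914 of 14922 and 1575 of 14862 were. DESeq2 called 0 members in each young comparison, and in the older ones 1 in 200M, 1 in 200H and 0 between these genotypes.

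Most members had small positive values in 200M pituitary, of which that of Emcn in the older cohort was called. In the young cohort 8 of 10 log2 fold changes were above 0 and the median was 0.17, beside 0.00 for all genes, and in the older cohort 7 of 10 were above 0 with a median of 0.14, beside -0.01 for all genes. The 200H values were above 0 for 7 of 10 young members (median 0.15) and 9 of 10 older members (median 0.09).

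Kdr, the main signalling receptor for Vegfa, lay near the threshold in older 200H pituitary. It was at 75.8, 102, 94.7 and 95.4 CPM in WT and at 125, 98.9, 127 and 116 CPM in 200H, so that 1 of the 200H libraries lay within the WT range. Its log2 fold change was 0.35 (95% interval 0.12 to 0.58, edgeR adjusted p = 0.0509). DESeq2 called it (0.34, adjusted p = 0.0302), as did edgeR with no filter on low counts (0.34, adjusted p = 0.0181) and edgeR without 200H replicate 2 (0.42, adjusted p = 0.0221). In older 200M pituitary Kdr was at 100, 122 and 83.7 CPM, which overlaps WT (log2 0.17, 95% interval -0.10 to 0.43). In the young pituitary the Kdr log2 fold change was 0.17 in 200M and 0.18 in 200H, neither called.

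Flt1, the decoy receptor, had log2 fold changes of 0.20 and 0.27 in young 200M and 200H pituitary and of 0.21 and 0.11 in the older cohort, with edgeR adjusted p values from 0.122 to 0.604. The ligand Vegfa was at 41.5 to 44.3 CPM in young WT and 42.8 to 51.1 CPM in young 200M pituitary (log2 0.07, 95% interval -0.12 to 0.25). In the older pituitary WT libraries spread from 51.3 to 101 CPM, and 200H replicate 2, at 61.4 CPM, lay far below the other 200H libraries. Without that library, Vegfa was called lower in older 200M than in 200H pituitary (log2 -0.32, edgeR adjusted p = 0.0477), whereas with it the value was -0.15 (adjusted p = 0.809).

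Among the angiopoietin genes, Angpt2 was low in every pituitary library, at 2.23 to 7.10 CPM, and its log2 fold changes against WT were below 0 in each of the 4 comparisons (-0.34, -0.23, -0.30 and -0.13 in young 200M, young 200H, older 200M and older 200H), none called. The intervals were wide, from -0.87 to 0.19 for young 200M. Tek values were -0.11 (200M) and -0.09 (200H) in young and 0.17 and 0.08 in older pituitary, and Tie1 values were between 0.12 and 0.22.

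Pecam1 values differed in sign between the cohorts. In young pituitary 200M libraries, at 36.8 to 39.7 CPM, were all above the WT libraries, at 31.2 to 35.6 CPM (log2 0.17, 95% interval -0.0026 to 0.35, edgeR adjusted p = 0.161). In older pituitary Pecam1 was at 33.7, 28.5 and 25.6 CPM in 200M and at 29.8, 35.2, 37.4 and 36.9 CPM in WT, which overlap (log2 -0.24, 95% interval -0.50 to 0.03). The difference between cohorts was -0.46 on the log2 scale (95% interval -0.76 to -0.17), with an edgeR adjusted p of 0.558. Cdh5 had values of 0.19 in young and 0.06 in older 200M pituitary, and Plvap, the member with the highest level there, had values of 0.00 (95% interval -0.18 to 0.18) and -0.02 (-0.29 to 0.25).

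**Figure D2:**
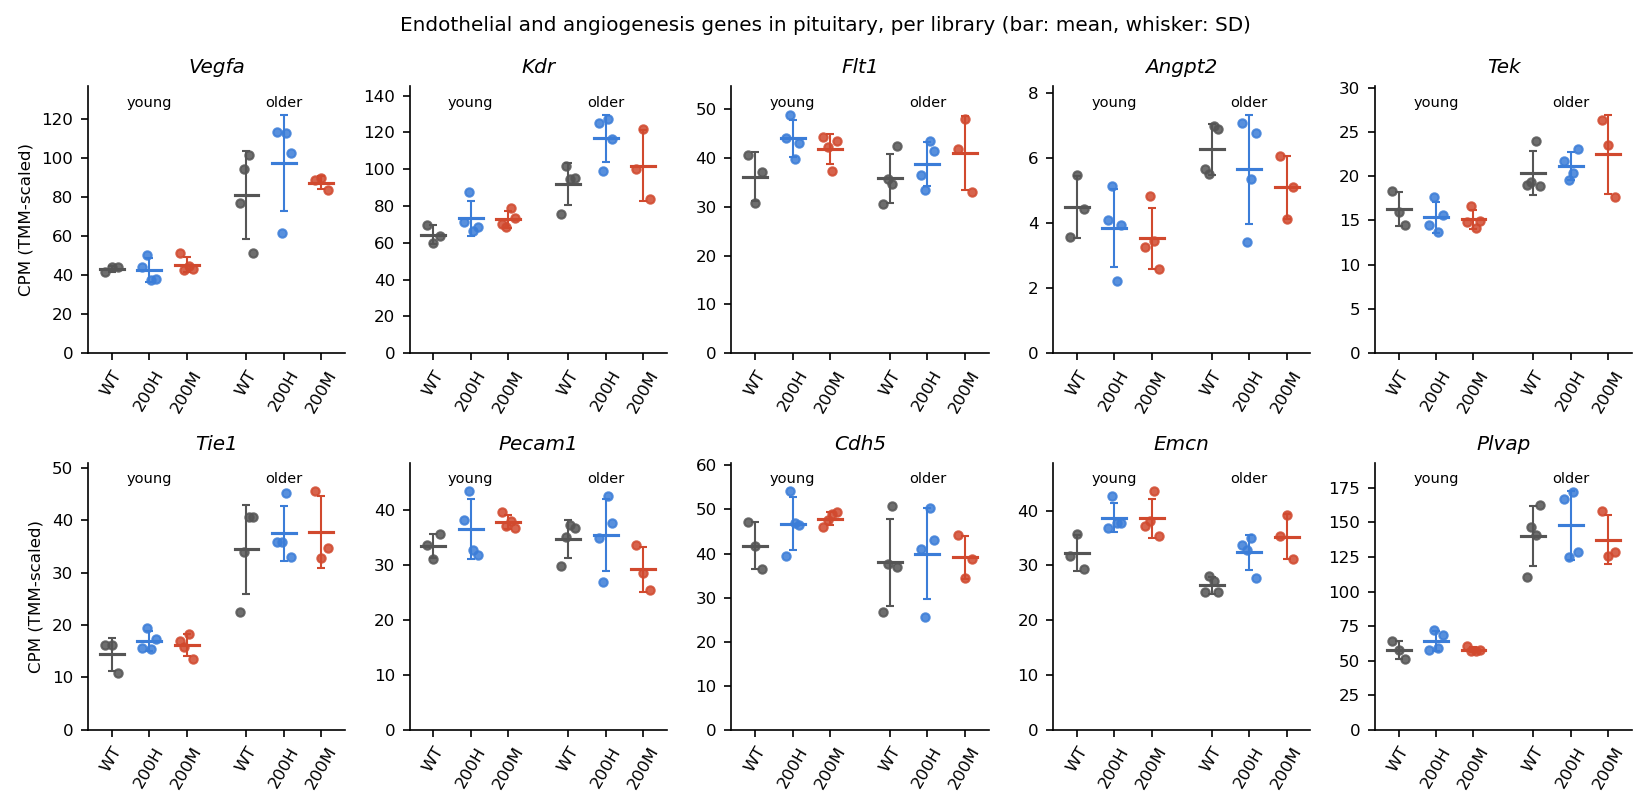
TMM-scaled CPM of the 10 members in each pituitary library (points) with the group mean (bar) and SD (whisker), by genotype and cohort, each panel with its own axis from 0. The older 200M Emcn points, at 31.1 to 39.2 CPM, lie above the WT points at 25.1 to 28.1 CPM, and in the other panels the genotypes overlap in most groups.

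Other cell type markers differed between the same pituitary libraries. The summed level of 6 hormone genes was 65500 to 88000 CPM in young 200M against 160000 to 184000 in WT, and 163000 to 208000 against 287000 to 330000 in the older cohort. Prl, the prolactin gene, was called lower (log2 -1.61 and -1.67), as was Cga (-0.665 and -0.806). Pomc, of the same list, was called higher in older 200M (1.02). The summed level of 13 pericyte and smooth muscle genes was 391 to 450 CPM in young 200M against 295 to 315 in WT, and overlapped in the older cohort at 336 to 427 against 271 to 380. The 8 macrophage genes summed to 60.0 to 72.8 CPM against 40.2 to 49.4 in young and to 133 to 189 against 97.7 to 123 in older pituitary. Neuron genes, 7 in number, summed to 894 to 1020 CPM against 757 to 838 in young and to 746 to 832 against 531 to 577 in older pituitary. The 6 fibroblast genes summed to 308 to 419 CPM against 550 to 672 in young and to 446 to 564 against 674 to 1030 in older pituitary. Within this list Col1a2 was called lower (log2 -1.68 and -1.24) and Dcn higher (0.64 and 0.91). Pdgfra was called higher in older 200M (0.83), a call lost without 200M replicate 3 (edgeR adjusted p = 0.0586). The 4 glial genes summed to 50.1 to 54.1 CPM against 83.7 to 87.4 in young and to 47.3 to 54.8 against 55.9 to 83.5 in older pituitary. Among them Mbp was called lower (log2 -1.08 and -0.79). Gfap was called higher in older 200M (0.99), but not by DESeq2 (adjusted p = 0.0934). Apart from 1 neuron gene, none of the genes in these lists was at 0 in every 200M or every WT library of a cohort. Their part in the Emcn result was not tested.

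Hypothalamus had 0 members called in every genotype comparison. The background was 0.02% of all genes in young 200M, 0.0202% in young 200H and 0.0% between young 200M and 200H, and in the older cohort 0.00622%, 0.0% and 0.0% in the same order. At an unadjusted p under 0.05 there were 1, 0 and 2 young and 1, 0 and 0 older members, and DESeq2 called 0 in each. Of all genes tested, 847 of 14988, 585 of 14877 and 682 of 14812 were under it in the young comparisons. In the older comparisons 2904 of 16067, 445 of 15910 and 3144 of 16156 were. Angpt2 was not tested in young hypothalamus, where it was at 0 to 2.21 CPM, on at most 11 counts a library.

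Vegfa was the member with the clearest separation in young hypothalamus. It was at 36.5, 35.3, 40.8 and 44.7 CPM in WT, at 39.0, 43.0, 43.4 and 47.6 CPM in 200H, and at 52.8, 49.3, 54.9 and 48.8 CPM in 200M. Every 200M library was above every WT and every 200H library. Relative to WT the 200M group had a log2 fold change of 0.38 (SE 0.11, 95% interval 0.15 to 0.61) with an edgeR adjusted p of 0.811, so it was not called. Leaving out any library kept it at 0.33 to 0.45. In older hypothalamus Vegfa was at 98.0, 82.8, 108 and 93.9 CPM in WT and at 102, 88.3 and 97.5 CPM in 200M, which overlap (log2 0.01, 95% interval -0.21 to 0.23). The difference between cohorts in the Vegfa response was -0.36 (95% interval -0.66 to -0.07, edgeR adjusted p = 0.340).

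The receptors and surface genes of young hypothalamus overlapped between genotypes, with 200M log2 values from -0.15 for Tek to 0.41 for Plvap, whose 95% interval ran from -0.31 to 1.14. In older hypothalamus Pecam1 was at 33.6, 22.4 and 32.6 CPM in 200M and at 23.2 to 26.1 CPM in WT (log2 0.28, 95% interval 0.00213 to 0.57, edgeR adjusted p = 0.273), so that 2 of the 3 200M libraries were above and 1 below the WT range. The other 9 older members had 200M values between -0.19 for Flt1 and 0.27 for Emcn.

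Ovary likewise had 0 members called. The background was 2.58% of all genes in young 200M, 0.0051% in young 200H and 0.0% between these genotypes, and 2.71%, 0.0% and 1.61% in the older cohort. Members at an unadjusted p under 0.05 numbered 1, 1 and 1 among the young comparisons and 2, 2 and 1 among the older. Of all genes tested, 3114 of 19250, 1384 of 19621 and 648 of 19259 were under it in the young comparisons. In the older comparisons 2944 of 17792, 1160 of 17605 and 2320 of 17855 were. DESeq2 called 1 member in older 200M against WT and 0 in the other ovary comparisons.

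Kdr was that member. It was at 98.5, 103, 110 and 105 CPM in older WT ovary, at 84.6, 93.9, 88.2 and 99.1 CPM in 200H, and at 85.2, 53.0, 62.0 and 85.8 CPM in 200M. Each 200M library was below each WT library, and 200H lay between, overlapping both groups. The log2 fold change of 200M was -0.53 (95% interval -0.90 to -0.16, edgeR adjusted p = 0.143), and DESeq2 gave -0.54 (adjusted p = 0.0489). In young ovary Kdr was at 72.5 to 79.0 CPM in WT and 67.1 to 83.2 CPM in 200M (log2 0.00, 95% interval -0.16 to 0.15). The difference between the cohorts was -0.54 (95% interval -0.94 to -0.15) with an edgeR adjusted p of 0.245.

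Tek, Cdh5 and Pecam1 were lowest in the same 2 older 200M ovaries. Replicates 2 and 3 had Tek at 23.0 and 23.6 CPM, against 36.4 and 36.5 in replicates 1 and 4, Cdh5 at 88.7 and 87.6, against 124 and 122, and Pecam1 at 51.2 and 67.4, against 89.5 and 89.1. Replicates 1 and 4 lay within the WT range for Tek and Cdh5, so the group splits within itself. Over all genes, replicates 1 and 4 were closer to each other than any other same-genotype pair of older ovaries. Their chi-square per degree of freedom, a measure of how far the counts of 2 libraries differ, was 4.84. Other pairs within 200M gave 34.1 to 60.9, and those within WT and 200H 13.0 to 40.8. The Kdr test counted replicates 1 and 4 as separate libraries, and why they are alike was not tested. Flt1 (log2 -0.31) and Angpt2 (-0.51) had intervals of -0.60 to -0.02 and -1.07 to 0.04. Plvap was above the WT range of 26.6 to 54.7 CPM in replicates 2 and 3, at 91.6 and 65.5 CPM, and the 200M group had a log2 value of 0.57 (95% interval -0.16 to 1.29). Replicate 2 was also above WT for Vegfa, at 235 CPM against 152 to 215, and for Emcn, at 39.3 CPM against 31.5 to 36.9. Of the 10 members 8 had values below 0, with a median of -0.23 beside 0.04 for all genes.

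Markers of other cells were summed in older 200M ovary, where 2.71% of all genes tested were called. The 6 luteal genes summed to 5280 to 13000 CPM in 200M and 11700 to 28600 CPM in WT, which overlap. Of this list Ptgfr, the prostaglandin F receptor of the corpus luteum, was called lower (log2 -7.37), as was Star (-3.77), which feeds cholesterol to steroid synthesis. The other luteal genes were not called. The Star call was lost without WT replicate 2 or 3 or 200M replicate 1, 2 or 4 (edgeR adjusted p = 0.055 to 0.0766). The 8 macrophage genes summed to 486 to 928 CPM in 200M and 243 to 468 in WT, but no gene of this list was called against WT. The sums carry no test. No gene of these lists was at 0 in all libraries of a group. Their part in the Kdr value was not tested.

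In young ovary the lowest adjusted p was that of Cdh5 in 200M. Cdh5 was at 130, 108, 137 and 117 CPM in WT and at 140, 147, 129 and 151 CPM in 200M, so that 1 of the 200M libraries lay within the WT range (log2 0.22, 95% interval 0.06 to 0.38, edgeR adjusted p = 0.139). For Angpt2 the 200H and WT libraries separated without a call. Angpt2 was at 24.2, 20.9, 21.8 and 20.6 CPM in WT and at 15.9, 19.9, 20.1 and 13.0 CPM in 200H, which do not overlap (log2 -0.29, 95% interval -0.59 to 0.01, edgeR adjusted p = 0.723). In 200M it was at 16.6 to 22.1 CPM (log2 -0.17). The 200M median over the members was 0.01, as for all genes.

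**Figure D3:**
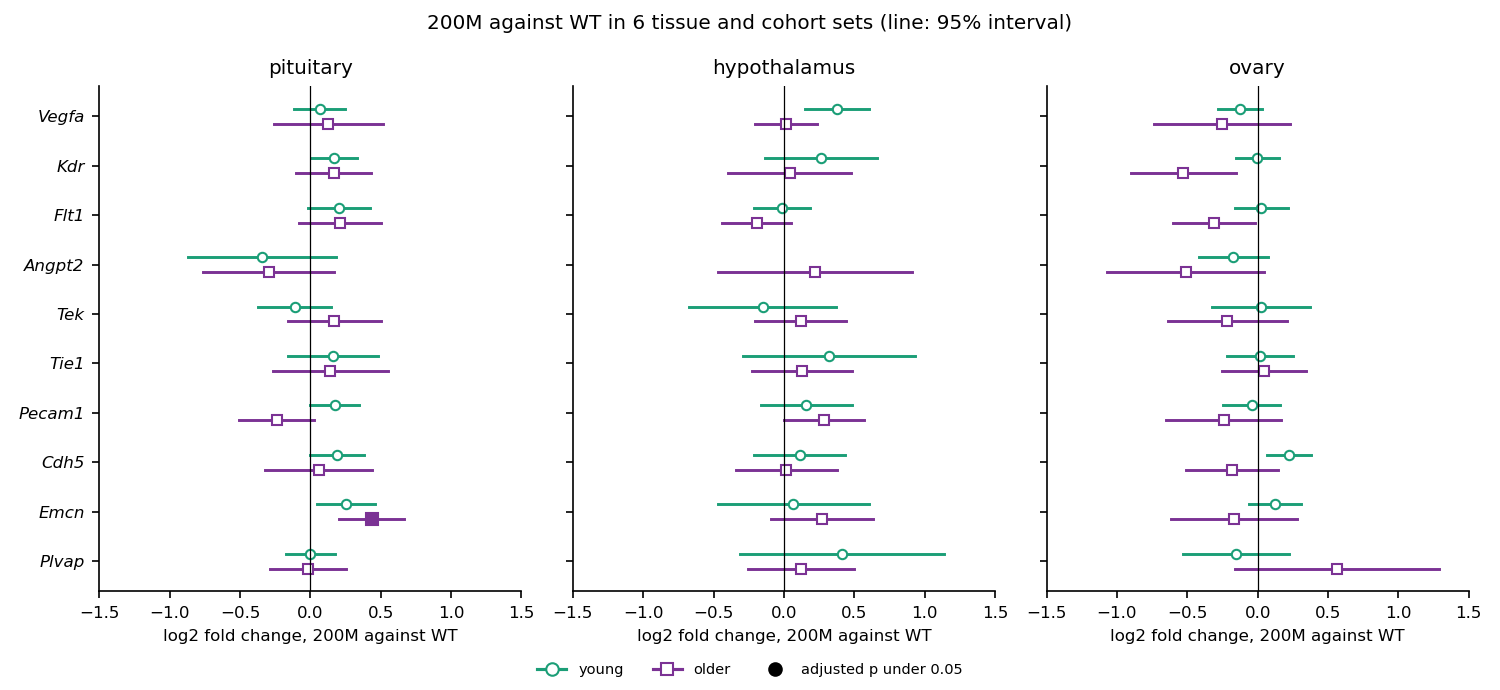
Log2 fold change of 200M against WT for each member (points) with its 95% interval from edgeR (lines), in pituitary, hypothalamus and ovary, with the young cohort as circles, the older as squares and the called value filled. The Emcn value in older pituitary, 0.44 with an interval of 0.21 to 0.67, is the one called, and the Vegfa value in young hypothalamus, 0.38 with an interval of 0.15 to 0.61, is not.

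Whether the 200M effect differed between tissues or cohorts was tested as an interaction, and 0 members were called in the 7 tests. The background was 10.5% of all genes for young pituitary minus hypothalamus, 0.11% for young ovary minus hypothalamus, 10.1% for young ovary minus pituitary and 17.5% for older pituitary minus hypothalamus. It was 0.0273% for the older minus the young cohort in pituitary, 0.154% in hypothalamus and 0.197% in ovary. Members at an unadjusted p under 0.05 numbered 1, 1, 0 and 2 between tissues and 1, 1 and 3 between cohorts. Of all genes tested, 4060 of 17789, 1556 of 19042, 5052 of 22130 and 5421 of 17180 were under it between tissues. Between cohorts 1257 of 18344, 1740 of 16831 and 2619 of 21786 were. DESeq2 called 1 member in young ovary minus hypothalamus and 0 in the other tests.

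That member was Vegfa, whose 200M effect in young ovary was below that in young hypothalamus by a log2 difference of -0.49 (95% interval -0.75 to -0.23, edgeR adjusted p = 0.164, DESeq2 adjusted p = 0.0482). For Pecam1 the effect in older pituitary minus that in older hypothalamus was -0.52 (95% interval -0.91 to -0.14, edgeR adjusted p = 0.0579). With no filter on low counts, it was -0.53 (adjusted p = 0.042), without older pituitary WT replicate 1 it was -0.59 (0.0383), without older pituitary 200M replicate 1 -0.64 (0.0361) and without older hypothalamus 200M replicate 2 -0.68 (0.00925). Emcn did not differ between pituitary and hypothalamus beyond its error, at 0.20 (95% interval -0.33 to 0.72) in the young and 0.16 (-0.21 to 0.54) in the older cohort.

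Other genes of the same pathways were counted in 200M pituitary, beside a background of 11.5% of all genes called higher and 10.0% lower for young mice, and 11.7% and 9.77% for older mice. The VEGF family list holds 7 more genes, and 1 of 7 tested was called higher and 0 lower in young 200M pituitary, with the same count in older 200M. Vegfd, which encodes a ligand of the lymphatic receptor Flt4, was that gene. It was at 25.7, 24.1 and 17.1 CPM in young WT and at 39.8, 50.4, 41.5 and 46.3 CPM in young 200M pituitary. In the older cohort it was at 7.17, 7.18, 6.80 and 10.6 CPM in WT and at 15.1, 20.3 and 14.7 CPM in 200M. The groups did not overlap in either cohort. Vegfd was 1.99-fold higher in young 200M (log2 0.99, SE 0.13, edgeR adjusted p = 7.77e-05) and 2.12-fold in older 200M (1.083, SE 0.19, adjusted p = 0.00177). In 200H it was 2.01-fold higher in young and 1.69-fold in older pituitary, both called, but without WT replicate 1, 2 or 3 or 200H replicate 2 the edgeR adjusted p in older 200H was 0.0511 to 0.0673.

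Angpt1, the ligand that activates the Tek receptor, fell in all 4 mutant pituitary groups. It was at 65.5, 104 and 75.6 CPM in young WT and at 41.3, 29.5, 29.8 and 27.5 CPM in young 200M pituitary. In older pituitary it was at 35.7, 29.5, 37.0 and 48.5 CPM in WT and at 19.9, 20.9 and 19.4 CPM in 200M. The 200M libraries were all below the WT libraries in both cohorts. The level was 0.392-fold that of WT in young 200M (log2 -1.35, SE 0.15, edgeR adjusted p = 1.55e-05) and 0.538-fold in older 200M (-0.89, SE 0.16, adjusted p = 0.00224). In 200H it was 0.391-fold in young and 0.591-fold in older pituitary, and the older call was lost without 200H replicate 3 (adjusted p = 0.0549) or 4 (0.0601). Of this list, 2 of 3 genes were tested in pituitary, and the phosphatase gene Ptprb was not called.

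Endothelial identity genes other than the members were mostly not called. In young 200M pituitary 2 of 24 tested were called higher and 0 lower, with a list median of 0.10, and in older 200M 2 of 26 were higher and 0 lower, with a median of 0.05. In 200H the counts were 0 of 24 in young and 1 of 26 in older pituitary. S1pr1, a receptor for sphingosine 1-phosphate that stabilises junctions, was 1.52-fold higher in young 200M (log2 0.61, edgeR adjusted p = 0.00166). Calcrl, which forms the adrenomedullin receptor, was at 7.59, 7.27, 5.20 and 8.53 CPM in older WT and between 11.05 and 14.2 CPM in the 3 older 200M libraries (log2 0.83, edgeR adjusted p = 0.00692). Its young 200M value was 0.32 (edgeR adjusted p = 0.0315). The young value was not called by DESeq2 (adjusted p = 0.0788), in a joint fit of the genotypes (0.140), or without WT replicate 1 (0.0956) or the WT library labelled u (0.139) or 200M replicate 1 (0.0557) or 3 (0.0839). Acvrl1, an endothelial receptor of the TGF-beta family, was higher in older 200M (log2 0.71, edgeR adjusted p = 0.0379), and the call was lost without any one of the libraries other than WT replicate 4, with edgeR adjusted p values from 0.0502 to 0.113.

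Of the sprouting and Notch-side genes, 1 of 11 tested in young and 1 of 10 in older 200M pituitary was called higher and 0 lower. That gene was Esm1, a proteoglycan gene of endothelial tip cells. It was at 16.3, 11.1 and 15.0 CPM in young WT and at 23.6, 21.1, 26.5 and 20.1 CPM in young 200M. In the older cohort it was at 75.9, 66.7, 66.6 and 80.2 CPM in WT and at 115, 169 and 169 CPM in 200M. No 200M library overlapped WT. The rise was 1.61-fold in young (log2 0.69, SE 0.14, edgeR adjusted p = 0.00199) and 2.10-fold in older 200M pituitary (1.07, SE 0.13, adjusted p = 0.000125). Older 200H libraries were spread from 37.3 to 103 CPM.

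Barrier genes of brain endothelium went down where they were called. In young 200M pituitary 2 of 6 tested were called lower, and in older 200M 2 of 5. Ocln, a tight junction gene that epithelial cells use as well, was at 22.8, 24.7 and 21.1 CPM in young WT and at 12.3, 9.82, 9.44 and 10.9 CPM in young 200M (log2 -1.12, edgeR adjusted p = 1.57e-05). The older 200M value was -0.67 (edgeR adjusted p = 0.0172), with 0.0687 without 200M replicate 1 and 0.0762 without replicate 3, and the 200H values were -0.89 in young and -0.88 in older pituitary. Mfsd2a, a lipid transporter of the blood-brain barrier, was at 3.68 CPM or less in young pituitary and gave -1.21 in young 200M, a call that edgeR lost without WT replicate 1 (-1.09, adjusted p = 0.0696). In older 200M Mfsd2a was at -0.96 (edgeR adjusted p = 0.041), a call lost with DESeq2 (0.0576), in the joint fit (0.0681) and without WT replicate 2 or 3 or any of the 3 200M libraries (0.082 to 0.131).

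**Figure D4:**
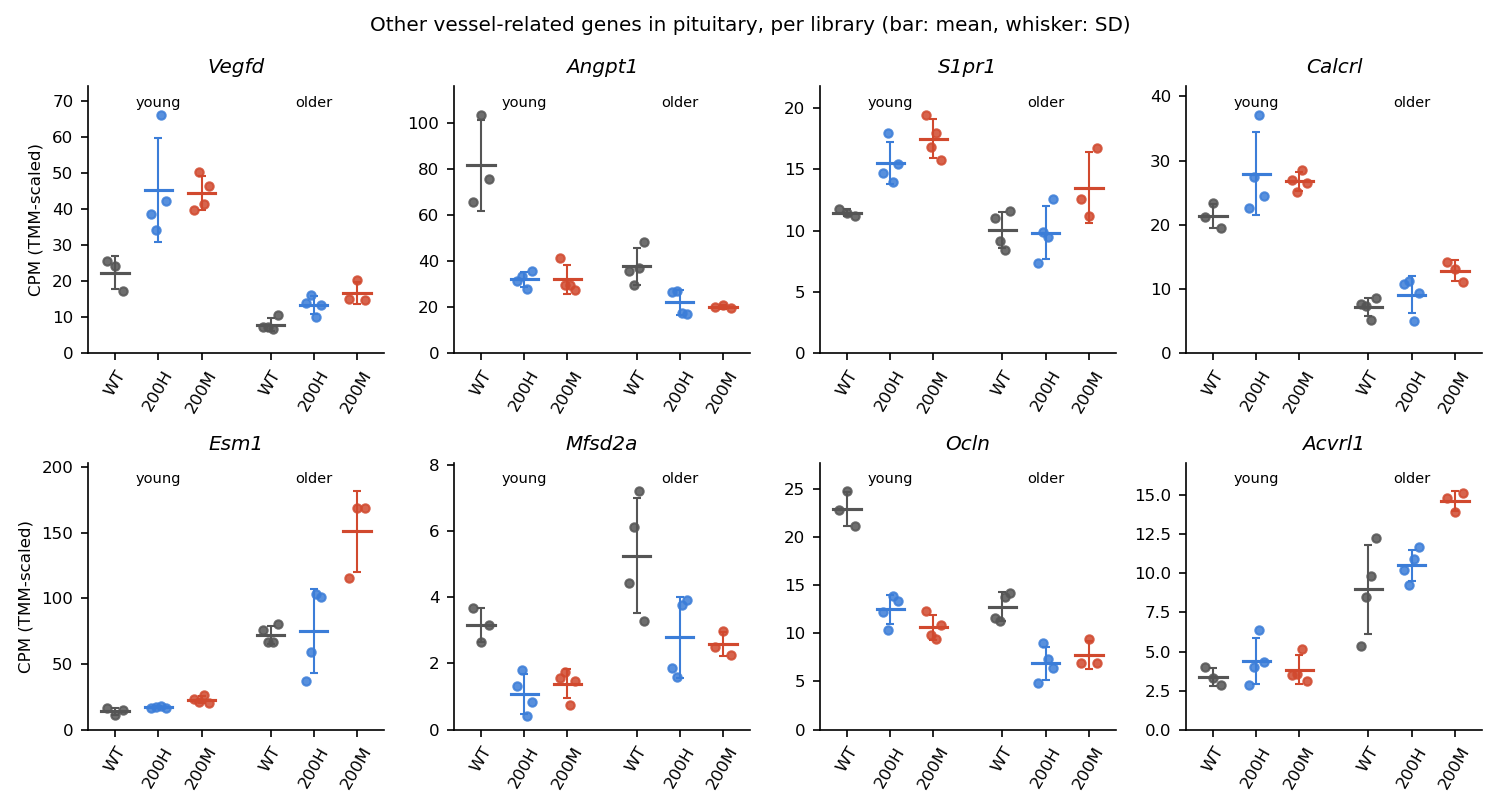
TMM-scaled CPM of 8 other vessel-related genes called in 200M pituitary, per library (points) with group mean (bar) and SD (whisker), by genotype and cohort, each panel with its own axis from 0. Vegfd lies higher and Angpt1 and Ocln lower in both mutant genotypes of both cohorts, while Esm1 in older pituitary is at 115 to 169 CPM in 200M and 66.6 to 80.2 CPM in WT.

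Mural cells wrap the endothelium, and 4 of 10 tested pericyte and smooth muscle genes were called higher and 0 lower in young 200M pituitary, and 2 of 10 in older 200M. Of all genes, 11.5% and 11.7% were called higher. Vtn, which pericytes express, was 2.09-fold higher in young and 2.12-fold in older 200M. Rgs5, a pericyte regulator of G protein signalling, was 1.42-fold and the receptor gene Pdgfrb 1.34-fold higher in young 200M. Kcnj8, a channel gene of pericytes, was called in older 200M (log2 0.49), but not by DESeq2 (adjusted p = 0.0665) or by edgeR without WT replicate 1 or 3 or any of the 3 200M libraries (0.0543 to 0.0967). Of 10 tested genes of the hypoxia list, 1 was called higher and 1 lower in young and 2 higher and 1 lower in older 200M. Ankrd37 fell in 200M (log2 -1.75 in young and -1.29 in older pituitary), while Bnip3 rose in young 200M (0.47), and Hk2 and Epas1 rose in older 200M (0.60 and 0.37). The young Ankrd37 call was lost without the WT library labelled u (adjusted p = 0.0686), and the Epas1 call without 200M replicate 1 (0.065). Hk2 was not called by DESeq2 (0.0535) or without WT replicate 1 or 2 or 200M replicate 1 or 3 (0.0945 to 0.184). Of the 4 lymphatic markers, only 2 were tested in older 200M, Pdpn (0.92) and Prox1 (0.41), and each was called. Lyve1 and Ccl21a were not tested there, so these calls do not describe the list as a whole. In young 200M 0 of 2 tested were called, and the difference between the cohorts was not tested. Prox1 lost its call in the joint fit of the genotypes (adjusted p = 0.0682) and without 200M replicate 1 (0.0675). In ovary, 0 genes of the VEGF, angiopoietin, endothelial identity, sprouting, barrier, lymphatic, mural and hypoxia lists were called by edgeR in 200M against WT, and between 0 and 3 genes of each list were at an unadjusted p under 0.05. Of all genes tested, 2.58% were called in young and 2.71% in older 200M ovary. At an unadjusted p under 0.05 were 3114 of 19250 and 2944 of 17792 genes.

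Many pairs of members also varied together between libraries of the same group, though not in every set. Pearson correlations of log2 CPM after subtraction of group means were taken in each tissue and cohort, over 11 or 12 libraries that share their counting and scaling, and averaged over the 6 sets. The highest mean was that of Flt1 and Tek, at 0.659, with all 6 sets above 0. Kdr with Cdh5 reached 0.593, Flt1 with Pecam1 0.584 and Kdr with Flt1 0.574, each above 0 in all 6 sets. The correlations of Plvap differed in sign between tissues. In pituitary they were above 0 with all 9 other members, at 0.178 to 0.824 among young and 0.199 to 0.826 among older libraries. In older ovary Plvap had -0.818 with Kdr and -0.67 with Cdh5, and the means over the 6 sets were between -0.01 and 0.255. Such a change of sign was not particular to Plvap. Vegfa had -0.66 with Kdr and -0.755 with Pecam1 in older ovary, against 0.542 and 0.858 in young pituitary. In young hypothalamus all pairs among Pecam1, Cdh5, Tie1 and Emcn were below 0, at -0.618 to -0.11.

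**Figure D5:**
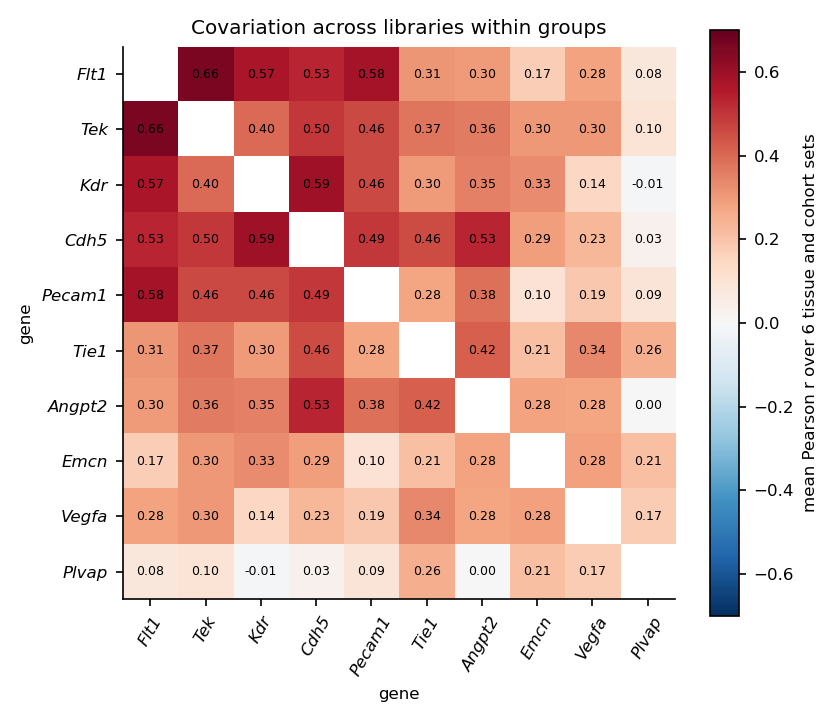
Mean over 6 tissue and cohort sets of the Pearson correlation between each pair of members (rows and columns) across libraries, after subtraction of group means, on a colour scale from -0.7 to 0.7. Flt1, Tek, Kdr, Cdh5 and Pecam1 form a block with the highest value 0.659, and the Plvap row, at or below 0.255, averages sets of opposite sign.

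Genes most like the endothelial members were ranked by their mean correlation with an index of Pecam1, Cdh5, Tie1 and Emcn, out of 11861 genes tested in all 6 sets. In young hypothalamus these index genes did not vary together, as all their pairs were below 0. The first 5 were Flt4 at 0.70, Ptprb at 0.658, Scarb1 at 0.655, Cd93 at 0.649 and Pttg1ip at 0.647. Scarb1 encodes a lipoprotein receptor and Pttg1ip a binding protein of securin. Over all genes the median was 0.086 and the 95th percentile 0.353. Of the members outside the index, Flt1 (0.584), Kdr (0.579) and Tek (0.543) lay above that percentile, and Vegfa (0.335) and Plvap (0.14) below it. Angpt2 has no value here, because it was not tested in young hypothalamus. Plvap had 0.722 and 0.84 in young and older pituitary, 0.323 in young ovary, and -0.396, -0.118 and -0.533 in young hypothalamus, older hypothalamus and older ovary. These values describe the libraries and carry no test.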

How the data were processed

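RNA was sequenced from 69 libraries. The authors aligned reads with STAR and deposited raw read counts per gene next to their own DESeq2 log2 fold changes and p values, which were not used here. The submitters' processing notes name STAR 2.7.1a, HTSeq 0.9.1, featureCounts, and DESeq2 1.18 and 1.38.3. Young libraries and the older ovary were counted with featureCounts and the other older libraries with HTSeq, without strand in the older cohort. Columns for 66 libraries recur in 2 tables and differed at 0 genes, and 3 count columns, WT columns of a young pituitary table, were not used. The young pituitary WT column whose number matches no label is called replicate u.

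Gene IDs were joined to symbols through the deposited columns, and 10 of 10 members matched. Each pair of groups was fitted alone in R 4.3.3 with edgeR 4.0.16 (filterByExpr, TMM, quasi-likelihood test, Benjamini-Hochberg adjustment, threshold 0.05). Pairs of WT tissues were fitted in the same way, and differences between effects were fitted in joint models. The script was tested on simulated data. The promoter search for CAGGTA was added after the data had been seen. Alternatives were DESeq2 1.42.0, other size factors, no filter, a joint fit, a replicate block and leaving out each library. The members and gene lists were chosen with earlier results of these data known. Besides the members, the text names at most 3 called genes of each list, those with the largest change, and the 5 genes most like an index of 4 members.

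Replicate numbers recur in every group. The correlation of deviations of same-numbered libraries ran from -0.483 to 0.456 and was over 0.1 for every pair in 0 comparisons, so the numbers were not taken to pair the libraries. Tissues of a cohort may come from the same mice, which a low correlation between unlike tissues cannot exclude. WT libraries matched their own number best in 4 of 4 cases for young ovary and pituitary. For young pituitary and hypothalamus it was 3 of 4, for young ovary and hypothalamus 4 of 8, and for older pituitary and hypothalamus 1 of 8. The main tests across tissues treated libraries as independent.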

Additional observations from a re-analysis of the deposited data

Results flagged for a closer look

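In 150 groups of 4 libraries the highest or lowest library was tested for its distance from the rest by its gap over the range of the group (Dixon, at the 95% level), and 6 stood apart. Chance gives about 1 in 20 groups. Emcn in young pituitary 200H replicate 2 was at 42.7 CPM, against 36.8 to 37.7 in the other libraries. Vegfa in older pituitary 200H replicate 2 was at 61.4 CPM, against 103 to 114. Tek in older pituitary WT replicate 3 was at 24.0 CPM, against 18.9 to 19.4. In young ovary 200H replicate 4, Tek was at 19.5 CPM, against 25.7 to 27.1, and Emcn at 31.5 CPM, against 40.7 to 42.2. Tek in older ovary 200H replicate 2 was at 47.6 CPM, against 32.8 to 34.1.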

How the results depend on the processing

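No called value of a member changed direction under the alternatives run. The count of members called was 0 in older 200H pituitary but 1 with DESeq2 and 1 with no filter, 0 in older 200M ovary but 1 with DESeq2, 0 for young ovary minus hypothalamus but 1 with DESeq2, and 0 for older pituitary minus hypothalamus but 1 with no filter. The replicate block changed 2 of 26 counts, the last to 1 and the 7 members called in young WT ovary against pituitary to 6, which DESeq2 gave too. These turned on Pecam1 (-0.50, edgeR adjusted p = 0.0492) and Tek (0.10, 0.660). Of the other named genes, the block left without a call Calcrl (adjusted p = 0.392), Mfsd2a (0.139), Vtn (0.113), Pdgfrb (0.0507), Ankrd37 (0.0816), Mrc1 (0.065) and Csf1r (0.118) in young 200M pituitary, Angpt1 (0.0567) in older 200H and Hbb-bt (0.051) in older 200M pituitary, Star (0.135) in older 200M ovary, and Prlr (0.0883) and Cyp11a1 (0.0691) in young 200M ovary. C1qa (adjusted p = 0.0631) in young and Gfap (0.0861) in older 200M pituitary also lost their edgeR calls under the block. Under the block the calls over all genes went from 3913 to 2691 in young 200M pituitary, from 497 to 150 in young 200M ovary and from 482 to 101 in older 200M ovary. Leaving out single libraries gave 0 to 1 members called in young 200M, older 200M and older 200H pituitary, in older 200M against 200H pituitary and in older pituitary minus hypothalamus, and 6 to 8 in young WT ovary against pituitary. The cause was not tested. Young hypothalamus libraries are the shallowest, and Angpt2 was left out of the genotype tests there by the filter on low counts. With 3 or 4 libraries a group, an interval of a log2 fold change is often wider than the values described.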

Other observations

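Cell type genes that are not part of the vessel lists also differed in the pituitary. Of all genes tested, 11.5% were called higher and 10.0% lower in young 200M, and 11.7% and 9.77% in older 200M. Of the macrophage genes, 3 of 7 tested were called higher and 0 lower in young 200M and 3 of 8 in older 200M, with the mannose receptor gene Mrc1 at log2 fold changes of 0.79 and 1.27 and the growth factor receptor gene Csf1r at 0.68 and 0.51. Of 6 fibroblast genes, 1 was called higher and 1 lower in young 200M, and 2 higher and 1 lower in older 200M. The collagen gene Col1a2 was lower (-1.68 and -1.24) and the proteoglycan gene Dcn higher (0.64 and 0.91). Of 5 erythrocyte genes, 0 were called in young and 2 in older 200M pituitary, Hbb-bs (1.06) and Hbb-bt (0.99), which without 200M replicate 3 were at 0.36 (adjusted p = 0.314) and 0.50 (0.253). The older Csf1r call was lost without WT replicate 2 (0.0539) or 200M replicate 3 (0.12). The macrophage gene Adgre1 (0.69), called in older 200M, lost its call without WT replicate 1, 2 or 3 or 200M replicate 1 or 3 (0.0594 to 0.128). C1qa (0.76), called in young 200M, lost its call without WT replicate 1 or 2 or 200M replicate 1 or 3 (0.054 to 0.0634). In young 200M ovary Mrc1 was lower (-0.51), as were Prlr (-0.70) and Cyp11a1 (-0.69), a prolactin receptor gene and a steroid synthesis gene. In the joint fit of the genotypes these had adjusted p values of 0.201, 0.0503 and 0.0589, and each was also lost without 3 or 4 of the single libraries (0.0528 to 0.0864). All calls are by edgeR's quasi-likelihood test with Benjamini-Hochberg adjustment.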
